A study of Drosophila melanogaster with 2 samples.

Results

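The regions described here are binding regions of a Gsc-eGFP fusion protein whose summits, the positions of highest signal, lay between a pair of gene starts facing away from each other. A region was taken when its summit was within 500 bp of the transcription start site of a protein-coding gene and between 2 such sites on opposite strands, pointing outward and at most 1000 bp apart. Of the 1655 regions that the authors deposited in the list made from both replicates, 1470 lay on the 6 chromosome arms used, and 224 of these met the rule (15.2%, 95% Wilson interval 13.5 to 17.2). They made up 42.1% of the 532 regions within 500 bp of a start site. The other 308 promoter regions, called single promoters below, and the 938 regions farther away served as comparison. All classes come from the same list, which the authors had already thresholded on the reproducibility of regions. Within that list position alone decided membership, and neither signal nor sequence was used.

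Chromatin came from whole Drosophila melanogaster embryos aged 0 to 24 h, of the transgenic strain Gsc-GFP, which carries an insertion of Gsc fused to eGFP. The description in the labels says that the fusion protein was precipitated with an antibody against GFP, while their antibody field reads Gsc. Precipitation came after sonication to fragments of 200 to 800 bp. The design has 1 group of 2 biological replicates and nothing to set it against; control libraries were not analysed here. The protein mapped is a tagged transgene product, and embryos of mixed age were taken whole, so the lists do not tell which cells or stages a region came from. Each region carries a signal value from the authors, whose scale no label or header states. The files hold no read counts, so sequencing depth is unknown and intervals on shares cover counting error over regions only. Regions of 1 genome are not replicates, and no p-value was computed.

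In the compact fly genome many genes stand head to head, and the short interval between them serves as the upstream region of both genes. Such pairs often serve broadly expressed housekeeping functions, and their starts carry characteristic sequence words, among them the DNA replication-related element TATCGATA, bound by Dref, the shorter word CGATA, bound by the insulator protein BEAF-32, and GGTCACAC from the element bound by M1BP. Gsc, the fly homologue of Goosecoid, is a homeodomain protein of the class that prefers TAATCC, while TAATTA is the core preferred by many other homeodomains. The stretch just upstream of an active start is usually poor in nucleosomes and rich in A and T.

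To show what these intervals look like, the 101 bases around the summits of the 6 strongest members on the arms from which sequence is shown are given from the Release 6 reference genome (RefSeq, build dm6), plus strand, 5′ to 3′. Capitals mark the longest unbroken run of A and T in each. The windows are chrX:2703826-2703926 between Ugalt and eIF2Bbeta, chr3R:29736793-29736893 between CG7601 and CIA30, chr3L:5139444-5139544 between Tcs5 and CHMP2B, chr3L:22878847-22878947 between Chro and Ssl1, chr2L:13835416-13835516 between mRpS23 and CenG1A, and chr3L:9426849-9426949 between Atat and Shc.
Ugalt and eIF2Bbeta: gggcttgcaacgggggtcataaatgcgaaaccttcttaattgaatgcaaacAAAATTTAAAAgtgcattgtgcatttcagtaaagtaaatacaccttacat
CG7601 and CIA30: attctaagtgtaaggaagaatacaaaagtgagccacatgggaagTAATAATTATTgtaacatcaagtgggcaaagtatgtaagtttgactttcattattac
Tcs5 and CHMP2B: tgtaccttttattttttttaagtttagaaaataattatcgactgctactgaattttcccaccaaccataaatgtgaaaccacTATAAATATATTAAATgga
Chro and Ssl1: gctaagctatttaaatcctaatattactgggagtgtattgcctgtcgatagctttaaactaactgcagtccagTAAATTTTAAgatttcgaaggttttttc
mRpS23 and CenG1A: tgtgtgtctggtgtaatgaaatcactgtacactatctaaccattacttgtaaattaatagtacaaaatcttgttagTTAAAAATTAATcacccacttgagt
Atat and Shc: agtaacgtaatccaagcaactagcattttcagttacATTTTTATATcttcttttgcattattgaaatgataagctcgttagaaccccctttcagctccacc
The longest runs measured 11, 11, 16, 10, 12 and 10 bases in this order, and the GC content of the windows was 35.6%, 31.7%, 25.7%, 33.7%, 29.7% and 35.6%. Of the words counted further on, the windows of Tcs5 and Chro held CGATA, and those of CG7601 and Tcs5 held TAATTA. The window of Atat held TAATCC, that window and the one of Tcs5 held TATAAA, and that of mRpS23 held ACAGTG. None of the 6 held TATCGATA or GGTCACAC. TATCGATA was rare in windows of this size, in 1.34% of members and in 2.04% of the midpoints of pairs without a summit between them. The 101 bases at 2 such midpoints that carry it (in capitals) are also given, and are not typical of these pairs. They lie at chr3R:10761121-10761221 between MED7 and Cap-H2, 278 bp apart, and at chr3L:9367161-9367261 between Klp67A and CG4452, 331 bp apart.
MED7 and Cap-H2: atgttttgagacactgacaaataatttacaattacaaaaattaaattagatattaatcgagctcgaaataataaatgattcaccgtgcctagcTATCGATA
Klp67A and CG4452: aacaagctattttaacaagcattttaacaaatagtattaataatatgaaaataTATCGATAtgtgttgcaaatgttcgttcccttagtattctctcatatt

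Ranked regions between divergent starts were called far more often than those of the other 2 classes. The authors also deposited the full list of ranked regions from which the called ones were taken by a threshold on the irreproducible discovery rate (IDR). Of 679 ranked regions with a summit between divergent starts, 224 were called, 33% (29.6 to 36.6). The share was 3.21% of 9587 ranked regions at single promoters, 0.876% of 107081 ranked regions elsewhere and 1.25% of all 117347 on the arms. Ranked regions themselves were not denser there, at 614 per Mb between divergent starts against 678 at single promoters and 885 elsewhere. Called summits were, at 202.5 per Mb against 21.8 at single promoters and 7.75 elsewhere. In the replicates' own called lists the densities between divergent starts were 182 and 140 per Mb, against 18.5 and 14.2 at single promoters and 5.0 and 4.03 elsewhere, so each replicate alone gave the same order.

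The share called was higher between divergent starts also among strong candidates. Among the 10% of ranked regions with the highest signal, 222 of 334 between divergent starts were called (66.5%), against 301 of 1149 at single promoters (26.2%) and 897 of 10252 elsewhere (8.75%). The 455 ranked regions between divergent starts that were not called had a median signal of 23.1 and reached 94.7. These 455 were 0.393% of all ranked regions not called, whereas members were 15.2% of the called ones.

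Seen from the genes, most divergent intervals had no called summit. The annotation held 2499 pairs on these arms with sites at most 1000 bp apart and no other protein-coding start between them, and 176 of them held a called summit, 7.04% (6.10 to 8.11). The share varied with the distance between the sites. It was 0.481% for the 416 pairs up to 100 bp apart and 3.24% for the 339 pairs over 100 to 200 bp apart. It was highest, 17.2% (12.8 to 22.6), for the 227 pairs over 200 to 250 bp apart, and 14.1% for the 291 pairs over 250 to 300 bp apart. Wider pairs were occupied less often, at 10.3% over 300 to 350 bp, 9.47% over 350 to 400 bp, 6.97% over 400 to 600 bp and 3.67% over 600 to 1000 bp, although a wider interval offers more positions for a summit.

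Both replicates gave the same shape when their own called lists were used. Replicate 1 had a summit in 6.52% of all pairs, with 14.1% in the 200 to 250 bp class and 14.1% in the 250 to 300 bp class. Replicate 2 had a summit in 4.80% of all pairs, with 9.25% and 10.3% in these classes. The other protein-coding start sites, merged into 11737 clusters, had a called summit within 500 bp in 2.50% of cases (2.24 to 2.80), although their search windows had a median of 1001 bp against 297 bp between the sites of a pair.

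**Figure D1:**
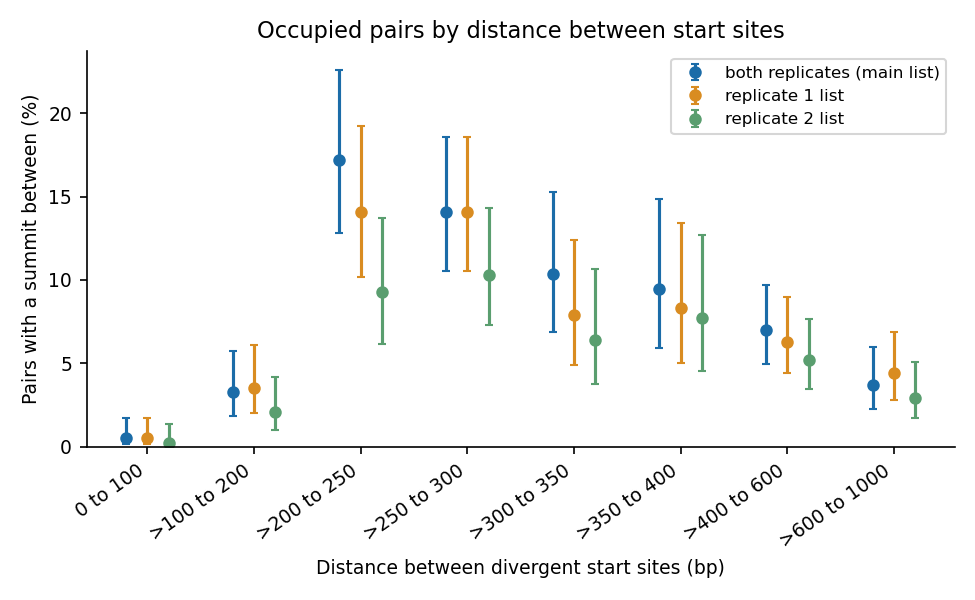
Share of uninterrupted divergent pairs with a called summit between their start sites (y axis, percent) by the distance between the sites (x axis, bp), in the list from both replicates and in each replicate's own list; bars are 95% Wilson intervals. In all 3 lists the share is under 5% up to 200 bp and is highest between 200 and 300 bp, where it reaches 17.2% in the list from both replicates.

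The 224 members lay between the sites of 219 distinct pairs and stood beside 455 genes. For 180 of them (80.4%) no other protein-coding start lay between the 2 sites, and for 44 at least 1 more start did. The first kind had a median signal of 129 and the second 137. The median distance between the sites was 299.5 bp (quartiles 244 and 448.5, range 52 to 955). Chromosome arm 3R carried 61 members, 19.6% of its called regions, 2L carried 52 (18.6%), 3L 50 (17.2%) and 2R 37 (13.2%). On the X there were 24, or 8.05% of 298 called regions, and none of the 10 regions on the Y was a member. The median signal of members lay between 122 and 140 on every arm that had any.

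Summits sat close to the centre of the interval, a little over 100 bp from the nearer start. The rule fixes only that the summit falls between the sites. The median distance to the nearest protein-coding start was 102 bp (quartiles 69 and 132, range 0 to 312), and that to the midpoint was 40.8 bp (quartiles 16.9 and 99). Of the 224 summits, 124 (55.4%) were within 50 bp of the midpoint and 76 within 25 bp. The nearer site was that of the plus-strand gene for 123 summits and that of the minus-strand gene for 99. At single promoters the median distance to the nearest site was 210 bp (quartiles 136 and 328), and 261 of 308 summits (84.7%) lay upstream of it. A summit within 150 bp of a start was found for 186 members (83.0%) and for 93 single promoters (30.2%). The rule bounds this distance for members, since the nearer site can be no farther away than the midpoint of the interval. In a pair as close as the median of 299.5 bp, any summit between the sites is within 150 bp of one. The shorter distances of members than of single promoters are thus in part fixed by the rule. The called region itself covered at least 1 of the sites in 166 members (74.1%) and both in 65 (29.0%). The median width of member regions was 336 bp, which was also the largest, so that width bounds the coverage of sites.

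The summits of the 2 replicates' own lists fell close to those of the joint list. That closeness is in part built in, since the joint list came from both replicates and each replicate's region was chosen by overlap. The median distance to the nearest start was 107 bp in replicate 1 and 106 bp in replicate 2, and that to the midpoint was 43 and 46.5 bp. The replicate's own summit was between the same 2 sites for 218 of 221 members with a region in replicate 1 and for 213 of 216 in replicate 2. It was displaced from the summit of the joint list by a median of 11 bp in replicate 1 and 14.5 bp in replicate 2. At single promoters the displacement was 12 and 15 bp, and elsewhere 17 and 16 bp. Stronger members sat nearer the centre. With members in 4 groups of 56 by signal, from the weakest to the strongest, the median distance to the midpoint was 62, 48.3, 34 and 26.3 bp, and the median distance between the sites was 319.5, 301, 294 and 277 bp. Across the 224 members Spearman's rho with signal was -0.21 for the distance to the midpoint and -0.11 for the distance between the sites.

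**Figure D2:**
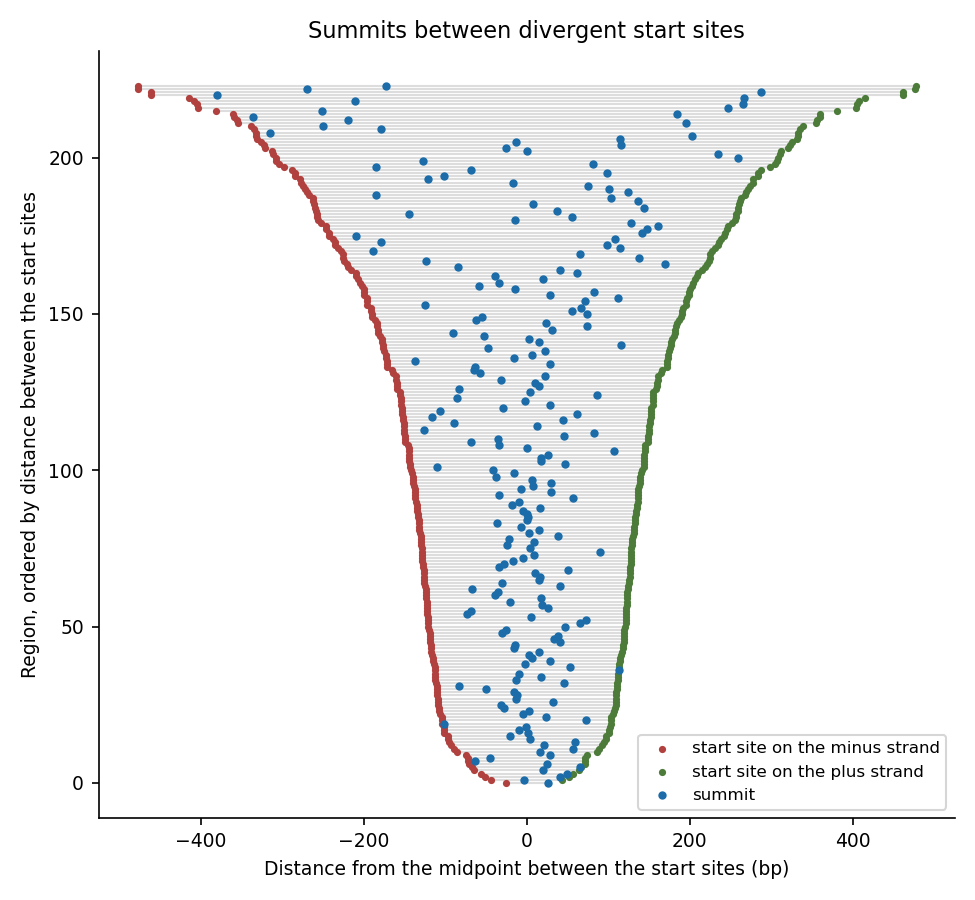
Each of the 224 members is a row, ordered by the distance between its start sites (y axis, rank), with the minus-strand site, the plus-strand site and the summit drawn at their distance in bp from the midpoint (x axis). Summits gather around 0 in narrow intervals, 124 of 224 within 50 bp, and spread toward either site in the widest ones.

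Members had high signal, but no higher than single promoters by more than the replicates differed. In the joint list the median signal of members was 132 (quartiles 88.6 and 219.9, range 14.8 to 1323), that of single promoters 124 (81.4 and 205) and that of regions elsewhere 87.8 (68.9 and 135). In the replicates' own ranked lists, members had medians of 74.4 and 56.5, single promoters 67.2 and 56.8, and regions elsewhere 48.4 and 43.4. The difference in median log2 signal of members minus single promoters was 0.15 in replicate 1 and -0.0075 in replicate 2 (0.07 ± 0.11, SD, n = 2), so its sign was not the same in both. With 1 start site per gene, the difference in the joint list was -0.12 in place of 0.086. That of members minus regions elsewhere was 0.62 and 0.38 (0.50 ± 0.17, SD, n = 2), above 0 in both replicates. Divergent and single promoters thus differed in how often a place was called, and not clearly in the signal of the called regions.

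Members and single promoters both made up more of the strong regions than of the weak ones. With the 1470 regions in 4 nearly equal groups by signal, from the weakest, members were 27, 46, 59 and 92 regions, or 7.34%, 12.5%, 16.1% and 25% of the group. Single promoters were 14.1%, 18.8%, 20.7% and 30.2%. Of the 12 strongest regions on the arms 7 were members, against 2 at single promoters and 3 elsewhere, and of the strongest 100 the counts were 33, 29 and 38.

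**Figure D3:**
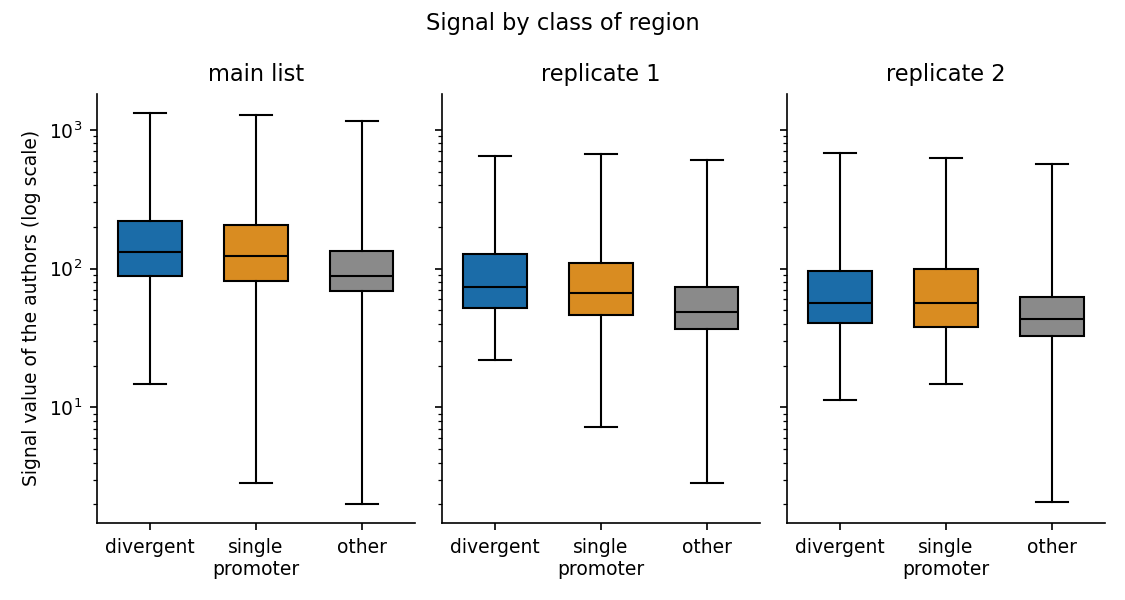
Signal value of the authors (y axis, log scale, scale not given) for the 224 members (divergent), the 308 single promoters and the 938 other regions, in the joint list and in each replicate's own ranked list; boxes span the quartiles, lines the medians and whiskers the lowest to the highest value. Members and single promoters overlap over most of their range, with medians of 132 and 124 in the joint list, and other regions are lower in all 3 panels.

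The strongest member, and the strongest region on the arms, lay between Ugalt, which codes for a UDP-galactose transporter, and eIF2Bbeta, a subunit of the exchange factor of translation initiation factor eIF2 (X, 2703733 to 2704042). Its signal was 646 in replicate 1, 680 in replicate 2 and 1323 in the joint list. It was also atypical in position: the sites were 719 bp apart and the summit was 24 bp from the start of Ugalt and 695 bp from that of eIF2Bbeta. The region between CG7601 and CIA30, an assembly factor of respiratory complex I (3R, 29736701 to 29736987), had 488 and 504 in the replicates. That between Tcs5 and CHMP2B, an ESCRT-III membrane remodelling protein (3L, 5139350 to 5139640), had 526 and 437. In both the summit was close to the midpoint, at 12 and 13 bp, in pairs 220 and 224 bp apart. The genes for Chromator (Chro), a chromodomain protein of chromosome structure, and for Ssl1, a subunit of the general transcription factor TFIIH, shared a region with 479 and 457 (3L, 22878746 to 22879041).

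Of the 12 strongest members 4 stood beside a mitochondrial ribosomal protein gene, and of all 224 members 9 did. The interval of the share of uninterrupted pairs with such a gene that were occupied (7.03 to 24.5%) included the 7.04% of all uninterrupted pairs. The interval of mRpS23, a protein of the small mitochondrial ribosomal subunit, and CenG1A, a GTPase-activating protein (2L, 13835321 to 13835605), had 451 and 393 in the replicates. That of the arginine methyltransferase gene Art3 and mRpS10 (3R, 15229394 to 15229661) had 431 and 375, with its summit 4.5 bp from the midpoint of a pair 257 bp apart. The interval of mRpL41 and CG8079 (2R, 15217618 to 15217885) had 503 and 278, the least even of the 12 strongest members. Those 2 values differed by 0.85 on the log2 scale, with the lower one in replicate 2. The interval of mRpL23 and CG9004 (3L, 2373477 to 2373739) had 376 and 294. That of PNPase, the mitochondrial polynucleotide phosphorylase, and the G protein-coupled receptor kinase gene Gprk2 (3R, 31404515 to 31404793) had 396 and 380. Among the 12 were also the intervals of Atat, a tubulin acetyltransferase, with the adaptor protein gene Shc (437 and 382) and of CG5757 with CG5098 (274 and 294). Replicate 2 was higher than replicate 1 in 3 of the 12.

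The lowest signals, 14.8 between the zinc finger gene trem and idc and 18.5 between the mitochondrial chaperone gene Hsc70-5 and CG8531, belonged to regions that overlapped a stronger member in the same interval, with signals of 116 and 122. Both members of such an interval matched the same region in each replicate, so their replicate values are not separate measurements. The lowest member that overlapped no other was that between CG17597 and ScpX, a sterol carrier protein gene, at 52.7. In all, 5 pairs held 2 members each. Besides trem with idc and Hsc70-5 with CG8531, they were Snx21 with aph-1, a subunit of gamma-secretase (157 and 59.1), Ac78C, an adenylyl cyclase, with chb (98.2 and 78.0), and Trmt6 with Ent2 (354 and 67.8). In these last 2 pairs, 923 and 665 bp apart, the members did not overlap. No other region of the list overlapped 218 of the 224 members.

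Regions on either side of the 1000 bp limit had signals in the same range. Just inside it were the regions between Ank2, an ankyrin, and Mcad, an acyl-CoA dehydrogenase (955 bp apart, signal 146), and between Idua and the gustatory receptor gene Gr32a (953 bp, 59.6). Just outside were those between the enolase gene Eno and Rrp40, an exosome subunit (1015 bp, 184), and between Pgm1 and SsRbeta (1086 bp, 104).

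The replicates' own called lists recovered members in most cases. A called region overlapped 184 members in replicate 1 (82.1%) and 149 in replicate 2 (66.5%), and 136 were overlapped in both (60.7%, 54.2 to 66.9). Only replicate 1 recovered 48 members, only replicate 2 recovered 13, and 27 (12.1%) were called in neither replicate alone. For single promoters the share in both was 56.5% (50.9 to 61.9) and that in neither 20.5%, and for regions elsewhere 35.2% and 33.6%. The interval of the members' share in both overlapped that of single promoters and lay above that of regions elsewhere (32.2 to 38.3). Recovery followed signal: in the 4 groups of 56 members from the weakest to the strongest, 2, 29, 51 and 54 were in both lists. Those 2 include the region of signal 14.8 between trem and idc, whose replicate values are those of the stronger member it overlaps. Members in both lists had a median signal of 191, those in 1 list 89.0 and those in neither 69.6.

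Of the 224 members, 213 had a value in both replicates' ranked lists. Replicate 2 over replicate 1 had a median log2 ratio of -0.27 (SD 0.54 over regions), against -0.27 at single promoters and -0.23 elsewhere, so the offset was alike in the 3 classes. Across these members Spearman's rho between the replicates was 0.83, with 24 of 213 differing by over 2-fold. At single promoters it was also 0.83, with 23 of 296, and elsewhere 0.65, with 84 of 900. Agreement between the replicates was thus no closer for members than for single promoters. The largest differences among members were at Spn88Eb, a serpin, with the cohesin loader gene Mau2 (67.6 in replicate 1 and 11.4 in replicate 2) and at the importin gene Kap-alpha3 with Son (71.5 and 12.8). In the opposite direction they were at l(2)37Bb with the proteasome gene Rpn3 (23.3 and 51.4) and at dpa, the fly Mcm4, with didum, a myosin (22.0 and 43.4). All 4 were weak members, with joint signals of 61.6 to 81.3. A value was missing in replicate 2 for 8 members, among them the rather strong ones between Fbw5 and CG9147 (228 in replicate 1) and between the insulator protein gene Cp190 and CG4338 (122), and in replicate 1 for 3.

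**Figure D4:**
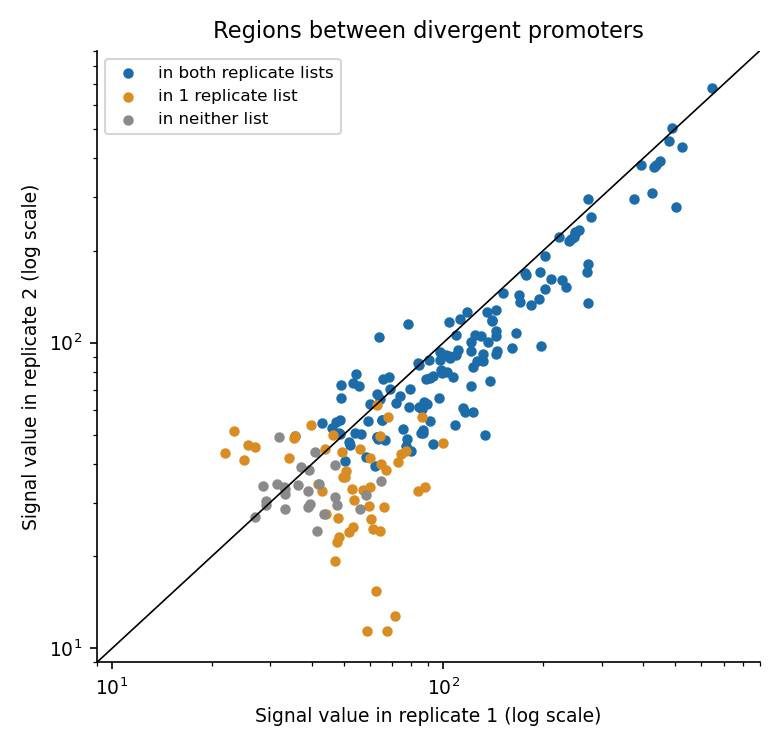
Signal of the 213 members with a value in both replicates, in replicate 1 (x axis, log scale) and replicate 2 (y axis, log scale); the line marks equal values and colours show in how many replicates' called lists a member was found. Points follow the line with most slightly below it (median log2 ratio -0.27), and members in neither list or in 1 list are at the weak end.

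Genes beside members were grouped into 12 sets by patterns in their symbols, and no set's interval lay clear of the 7.04% of all uninterrupted pairs that were occupied. A pattern misses genes of the same function with another kind of symbol, so the counts hold for the symbols and not for whole functional classes. Pairs with an mRpL or mRpS gene, coding for mitochondrial ribosomal proteins, were occupied in 8 of 59 cases (13.6%, 7.03 to 24.5). Counting also pairs with a further start between, 9 members stood beside such a gene, with signals of 91.4 to 851 and a median of 246, and after the 4 named above the strongest was at mRpL20 with Icmt (144 and 105 in the replicates). Pairs with a gene named Polr1 to Polr3, Taf, MED or TfII, coding for parts of the transcription machinery, were occupied in 7 of 53 cases (13.2%, 6.55 to 24.8), and in 4 in the list of replicate 2 alone. The strongest of their members were at the shared RNA polymerase subunit gene Polr2H with CG11247 (131 and 92.0), the Mediator gene MED27 with elm (133 and 50.1), Polr2J with CG15141 (93.3 and 46.5) and Taf5, a TFIID subunit gene, with Pex6 (83.7 and 32.7).

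Of the pairs with a symbol of a cytosolic ribosomal protein 4 of 56 were occupied, at RpL32, RpS27, RpL34b and RpL23, with joint signals of 206, 200.4, 178 and 84.7. Respiratory chain symbols had 4 of 45, at ND-MWFE, ND-ASHI, blw and ND-51 (240.3, 201, 183 and 73.4). Symbols beginning with eIF or eEF, or made of 3 letters and RS, had 2 of 49, at eIF2Bbeta (1323) and the tRNA synthetase gene IleRS (104), and with a further start allowed between the sites also SerRS (217) and eIF5B (93.2). Proteasome symbols had 1 of 26, at Rpn3 (69.4), those searched for replication and the cell cycle 1 of 26, at Mcm2 with RPA1 (102), and chemosensory symbols 1 of 30, at Gr32a. For architectural proteins 1 of 7 was occupied, at Cp190 (222), and with a further start allowed also Chro (932) and pzg (191). The symbols searched for splicing and cuticle proteins, in 23 and 6 pairs, matched no occupied pair. Genes known only by a CG number had 81 of 1368 pairs occupied (5.92%, 4.79 to 7.30).

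Genes of these functions that the patterns did not match were not counted beside pairs without a summit, so no share can be given for them. Several members, named after their values were seen, stood beside such genes. For splicing they were SNRPG, a core Sm protein gene, with mthl1 (144 and 128 in the replicates) and Phf5a, an SF3b subunit gene, with CG31638 (132 and 87.4). For transcription they were, besides Ssl1, the RNA polymerase III initiation factor genes Bdp1 with CG6565 (176 and 169) and Brf with sds22 (87.2 and 63.8). The tRNA synthetase gene GluProRS with AP-1sigma had 196 and 97.5, and PolD2, a DNA polymerase delta subunit gene, with CG13933 had 166 and 108. A member between transcription units of the insulator protein gene mod(mdg4), listed under pre-mod(mdg4) symbols, had 125 and 106.

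Members were the most AT-rich of the 3 classes of called region. The median GC content within 50 bp of the summit was 28.7% for members (quartiles 24.8 and 33.7), 31.7% for single promoters and 36.1% for regions elsewhere. At 200 to 300 bp from the summit it was 43.8%, 45.3% and 46.3%, so the classes differed more at the summit than around it. Taking each replicate's own summits gave a median of 28.7% for members in both replicates. In pairs at least 100 bp apart, the midpoints of the 174 occupied ones had 26.7% and those of the 1912 without a summit 29.7%, so a low GC content was not particular to occupied intervals. The shape differed: around members GC content fell steeply within about 100 bp of the summit, while around midpoints of unoccupied pairs it sloped gently over 200 bp and more. At 100 bp on either side the mean GC was 38.7 and 40.5% for members and 35.6 and 35.5% for unoccupied midpoints. Around the midpoints of occupied pairs, the closer comparison, it was 38.7 and 38.5%. Occupied and unoccupied pairs were not matched here in the distance between their sites, and how far that distance shapes the profiles was not tested.

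Unbroken runs of A and T were also longer. A run of at least 15 such bases lay within 50 bp of the summit in 78 members (34.8%, 28.9 to 41.3), in 19.5% of single promoters and in 10.9% of regions elsewhere. It lay within 50 bp of the midpoint in 25.6% of unoccupied pairs (23.7 to 27.6) and in 32.2% of occupied pairs (25.7 to 39.4), with overlapping intervals. Strong members had the lowest GC content, with medians of 30.2%, 28.7%, 28.7% and 25.7% in the 4 groups from the weakest to the strongest. Spearman's rho between GC content and signal was -0.17 over members, -0.21 over single promoters and -0.43 over regions elsewhere. The regions share libraries, and how base composition acts on the recovery of fragments was not tested.

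**Figure D5:**
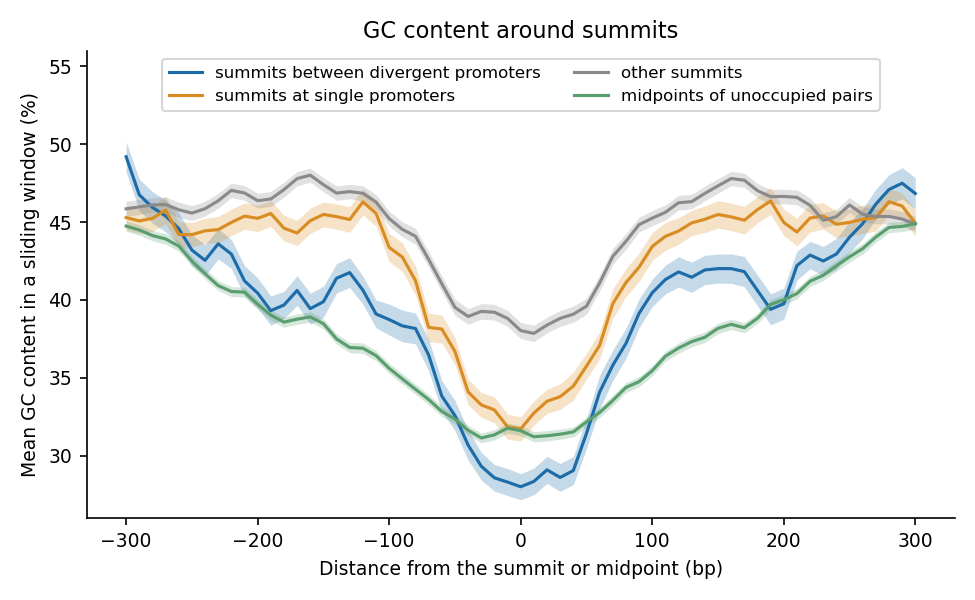
Mean GC content (y axis, percent, in sliding windows of 20 bp) by distance in bp (x axis) from the summits of the 224 members, 308 single promoters and 938 other regions and from the midpoints of 1912 divergent pairs without a summit; shading is the standard error over regions. Members drop to 28.0% at the summit, below the other curves shown, with steep sides. The unoccupied midpoints, from pairs of unlike distance between the sites, form a broader trough with gently sloping sides.

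Word content was counted on both strands within 50 bp of the summit, and beside it in windows of the same length at the starts of 13888 protein-coding genes. The latter windows lay on the start itself, whereas members' summits were a median of 102 bp from the nearest start. Shares at members and at gene starts thus compare positions and not whole promoters. The words bound by Dref, BEAF-32 and M1BP were less frequent close to members' summits than close to gene starts. TATCGATA was in 1.34% of members, 0.325% of single promoters, 0.107% of regions elsewhere, 2.04% of unoccupied midpoints and 5.55% of gene starts. CGATA, which TATCGATA contains, was in 12.1% of members (8.42 to 17.0), 14.0% of single promoters, 10.2% of regions elsewhere, 18.1% of unoccupied midpoints (16.4 to 19.9) and 25.8% of gene starts. Within 100 bp the order of the classes turned, with CGATA in 31.7% of members, 25.3% of single promoters and 18.3% of regions elsewhere, and TATCGATA was in 4.46% of members. GGTCACAC was in 0 of 224 members, which allows a share of up to 1.34%, and likewise in 0 of 308 single promoters. It was in 0.213% of regions elsewhere, in 0.994% of unoccupied midpoints and in 5.60% of gene starts.

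Words rich in A and T were more frequent close to members' summits than close to gene starts. TAATTA was in 16.1% of members (11.8 to 21.4), 9.74% of single promoters, 5.33% of regions elsewhere, 12.5% of unoccupied midpoints and 2.89% of gene starts. TATAAA was in 32.1% (26.4 to 38.5), 24.4%, 15%, 26.2% and 17.0% of the same 5 sets. For TAATTA the members' interval includes the share at unoccupied midpoints, and for TATAAA its lower bound is 26.4% against 26.2%. TAATCC, the word that the Gsc class of homeodomains prefers, was in 4.91% of members, 5.19% of single promoters, 2.88% of regions elsewhere, 3.24% of unoccupied midpoints and 2.41% of gene starts. GAGAG, bound by the GAGA factor, was in 4.46% of members, 10.1% of single promoters, 9.06% of regions elsewhere and 7.58% of unoccupied midpoints. CATATG was in 1 of 224 members (0.446%, 0.079 to 2.49), 3.25% of single promoters, 4.37% of regions elsewhere and 2.02% of gene starts. CAGCTG was in 2.23% of members, 2.60% of single promoters, 4.37% of regions elsewhere and 9.37% of gene starts. ACAGTG was in 4.46% of members, 5.84% of single promoters and 6.61% of regions elsewhere. The share for ACAGTG varied with the list and the window: with the list of replicate 1 alone it was in 0.995% of members, and within 100 bp of the joint list's summits in 17.4%.

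Where words lay relative to the summit differed from word to word. Counts were made in steps of 40 bp to either side and given per kb searched. TAATTA was densest at the summits of members, at 2.12 per kb within 40 bp, and 0.725 per kb at 120 to 160 bp. CGATA ran the other way, at 1.79 per kb within 40 bp and 5.13 per kb at 80 to 120 bp, and so did CAGCTG, an E-box and core promoter word, at 0.223 per kb within 40 bp and 2.46 per kb at 120 to 160 bp. The median distance to the nearest start, 102 bp, falls among the distances at which both were dense. At single promoters CGATA was at 1.58 and 2.23 per kb and CAGCTG at 0.203 and 1.06 per kb in the same steps, and elsewhere at 1.16 and 1.07 and at 0.40 and 0.68 per kb. The replicates' own summits gave like values, with CAGCTG at 0.283 and 0.174 per kb within 40 bp and at 2.43 and 2.55 per kb at 120 to 160 bp in replicates 1 and 2.

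Pairs without a summit showed part of the same layout, as a comparison of pairs over 200 to 400 bp apart showed. Around the midpoints of occupied pairs CGATA was at 0.855 per kb within 40 bp and 7.27 per kb at 80 to 120 bp, and around those of unoccupied pairs at 1.76 and 8.05 per kb. CAGCTG at 80 to 120 bp was at 2.67 per kb around occupied and 1.18 per kb around unoccupied midpoints, and TATCGATA at 0.962 and 1.31 per kb. TAATTA was at 2.67 per kb within 40 bp of occupied midpoints and 2.07 per kb within 40 bp of unoccupied ones, so pairs without a summit shared this layout too. ACAGTG was at 0.446 per kb within 40 bp of members' summits and at 2.12 per kb at 80 to 120 bp. Single promoters had 0.528 and 2.48 per kb, regions elsewhere 0.60 and 2.03 per kb and the unoccupied midpoints 0.388 and 0.809 per kb. The unoccupied midpoints reached 1.00 per kb at 120 to 160 bp, so a flanking rise of ACAGTG was found in every class of called region and, at a lower level, in pairs without a summit.

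Over the whole interval between the sites, in pairs over 200 to 400 bp apart, occupied pairs held CAGCTG in 34 of 117 cases (29.1%, 21.6 to 37.8) and unoccupied pairs in 130 of 773 (16.8%, 14.3 to 19.6). ACAGTG was in 23.9% (17.1 to 32.4) and 14.9% (12.5 to 17.6). GGTCACAC was in 4 of 117 occupied intervals (3.42%, 1.34 to 8.46) and in 9.44% of unoccupied ones (7.58 to 11.7). CATATG was in 3 of 117 (2.56%, 0.876 to 7.27) and in 8.93% (7.11 to 11.1). For ACAGTG, GGTCACAC and CATATG the Wilson intervals of occupied and unoccupied pairs overlapped. CGATA was in 60.7% and 63.6% and TATCGATA in 16.2% and 18.9%. The stretches between the sites were alike in base composition, with a median GC content of 33.9% and 33.8%. The occupied ones were shorter, with a median of 268 bp against 290 bp. The counts over whole intervals and by distance from the summit were added after the data were seen. A word found here is a description of the sequence and not a binding site.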

How the data were processed

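Per the labels, 2 biological replicates of Gsc-eGFP chromatin immunoprecipitation from whole embryos were sequenced, and coordinates are on dm6. For the aligner and the peak caller, names and versions were not given in the sources used here. Ranked and called lists were deposited for each replicate and for both together. The deposited signal is the value the authors give each region, on an unstated scale, and the deposited score is their scaled IDR value (830 or more for called regions). Of the ranked lists, 16 columns without a name, which no label assigns to a replicate, were not used.

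Start sites of 13888 protein-coding genes (19134 sites) were taken from Ensembl release 115. A summit was the region's start plus the offset given in the file. Values per replicate came from the region with the longest overlap, of at least 1 bp, in that replicate's ranked list. In the ranked list, 126 regions on the arms had a score at the threshold but were absent from the called list, and 65 overlapped a called region without being it. Both kinds were left out of the background. Start sites outside divergent pairs were merged within 500 bp. Shares carry 95% Wilson intervals. The limit that a count of 0 allows was set at 3 counts. Scripts ran in Python 3.11.15 with numpy 2.4.6, pandas 2.3.3 and scipy 1.17.1 and were checked on simulated data. The members, the 10 words and the 12 sets of gene symbols were chosen with earlier results of these data known. Named genes were those beside the 12 strongest and 3 weakest members, the 4 members with the most unequal replicates, pairs with 2 members, the 4 strongest members per family and the 4 regions nearest the 1000 bp limit; Fbw5, Cp190, the members beside genes outside the symbol patterns and the pairs MED7 with Cap-H2 and Klp67A with CG4452 were named after their values were seen. Of the 12 strongest members, 1 is not reported here by name. Alternatives were another list, each replicate alone, the stronger 50% of regions, 1 start site per gene, a 500 bp limit, overlapping regions merged, uninterrupted pairs only and wider windows.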

Additional observations from a re-analysis of the deposited data

How the results depend on the processing

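With 1 replicate's own list the share of members was 18.4 to 18.8%, with the stronger 50% of regions 20.5%, with 1 start site per gene 11.0%, with pairs at most 500 bp apart 12.2% and with uninterrupted pairs only 12.6%. The difference in median log2 signal, members minus single promoters, was 0.086 in the joint list, ran from -0.059 to 0.061 in the lists of 1 replicate and was -0.12 with 1 start site per gene; against all other regions it was 0.50. Recovery in both replicates was 84.8% for the stronger 50%. The share of occupied pairs was 4.80 to 6.52% in the lists of 1 replicate and 4.80% for the stronger 50%. The share of ranked regions called was 43.1% with pairs at most 500 bp apart and 66.5% for the strongest 10%. The median distance to the nearest start was 102 to 106 bp with 1 replicate, 103 bp for the stronger 50%, 106 bp with 1 site per gene, 98 bp with pairs at most 500 bp apart and 105.5 bp for uninterrupted pairs. The median GC content was 27.7% with either replicate alone, for the stronger 50%, with 1 site per gene and for uninterrupted pairs, and 32.8% within 100 bp. The cause of these shifts was not tested. The other 24 values of these results stayed within their error, and of the values for single words and sets of gene symbols 25 moved and 95 did not, among them ACAGTG at 0.995% without replicate 2 and the transcription symbols at 4 pairs without replicate 1. Within 100 bp, 8 of the 10 words moved. The wider window contains the narrower one, so these shares could only stay or rise. No paired analysis was possible because the series has 1 group. The unknown depth and the lack of a control in the comparison limit what a region not called can show.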
